A study of Mus musculus with 1 sample.

Results

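The genes described here are 10 genes of antigen presentation by class I molecules of the major histocompatibility complex (MHC): H2-K1, H2-D1, B2m, Tap1, Tap2, Tapbp, Psmb8, Psmb9, Psmb10 and Nlrc5. They were chosen by symbol, and each matched 1 row among the 32285 genes of the count matrix. They were measured by single-cell RNA-seq in 1 library of lineage-negative, Kit-positive bone marrow cells, the fraction in which blood stem cells and their early progeny are found. The mice were of the C57BL/6 strain, carried floxed Brd9 alleles without the Cre deletion and so served as controls of a study of the chromatin factor Brd9. They had received 3 doses of 20 mg/kg polyinosinic-polycytidylic acid (pIpC), a double-stranded RNA mimic that induces interferon, and the cells were prepared 8 weeks after it. The labels name a CD45.2-positive donor and a CD45.1-positive, CD45.2-negative recipient, while the series text speaks of primary mice, so whether the cells came from a transplant was not settled. How many mice went into the library was not given in the sources used here, and no library of mice without pIpC was analysed, so that the levels below hold no comparison with untreated cells. Cells with Brd9 deleted are not analysed here.

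Class I molecules show peptides from inside a cell to cytotoxic T cells and are also read by natural killer cells. Proteins are cut by the proteasome, and when a cell has met interferon the catalytic subunits of its core can be replaced by the inducible subunits that Psmb8, Psmb9 and Psmb10 encode. The peptides are pumped into the endoplasmic reticulum by the transporter made of Tap1 and Tap2, where tapasin, the product of Tapbp, helps to load them on a heavy chain (H2-K1 or H2-D1) bound to the light chain B2m. Nlrc5 is the transcriptional coactivator of the class I genes, and interferon raises the RNA of most genes of this pathway. Class I molecules decline on red cell precursors as these mature.

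The matrix held 8817 barcodes and 167452386 unique molecular identifiers (UMIs, which count each captured RNA molecule once). The study's filter kept 7645 cells with 1592 to 49991 UMIs each. Cells were then gated on marker genes, none of them a member, after each cell had been thinned at random to 5000 UMIs, which left out 99 shallower cells. The stem gate took 718 cells with at least 2 of 6 stem cell markers such as Hlf, Procr and Mecom. The erythroid gate took 1107 cells with at least 3 of 7 markers such as Klf1, Epor and Ermap. The myeloid gate took 2675 cells with at least 3 of 8 markers such as Ctsg, Elane and Csf1r. The lymphoid-primed gate took 162 cells with at least 2 of 6 markers such as Flt3, Dntt and Satb1. A gated cell had at most 1 marker of each other gate or other cell type. Each gate is a range of a marker count and not a sharp cell type: 284 stem, 175 erythroid, 490 myeloid and 75 lymphoid-primed cells lay at the minimum, and 346, 169, 219 and 161 ungated cells lacked 1 marker. The median cell of the lymphoid-primed and myeloid gates also had a UMI of 1 marker of T or NK cells, and that of the lymphoid-primed gate had 1 myeloid marker, while the medians of all remaining marker lists outside the own gate were 0. Rag1, a marker of lymphoid commitment, was seen in 6.17% of the thinned lymphoid-primed cells, Il7r in 22.8% and Dntt in 70.4%.

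Levels are the UMIs of a gene in every 1000000 UMIs of a gate (counts per 1000000, CPM), each with its exact 95% Poisson interval. A fold is the ratio of such levels in 2 gates, with the exact conditional binomial interval. All intervals cover counting error only. With 1 library there were no replicates, no test was run, and differences between mice were not measured. Genes were called apart when their levels differed at least 1.5-fold.

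Erythroid-gated cells had the lowest level of every member. The heavy chains and B2m were highest in stem-gated cells, the peptide transporter was highest in lymphoid-primed cells, and Psmb8 and Psmb10 were highest in myeloid cells. The spread between gates was widest for Psmb8, with 73 CPM in erythroid and 630.3 CPM in myeloid cells, and narrowest for Tapbp, with 49 CPM in erythroid and 80.5 CPM in stem cells.

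**Figure D1:**
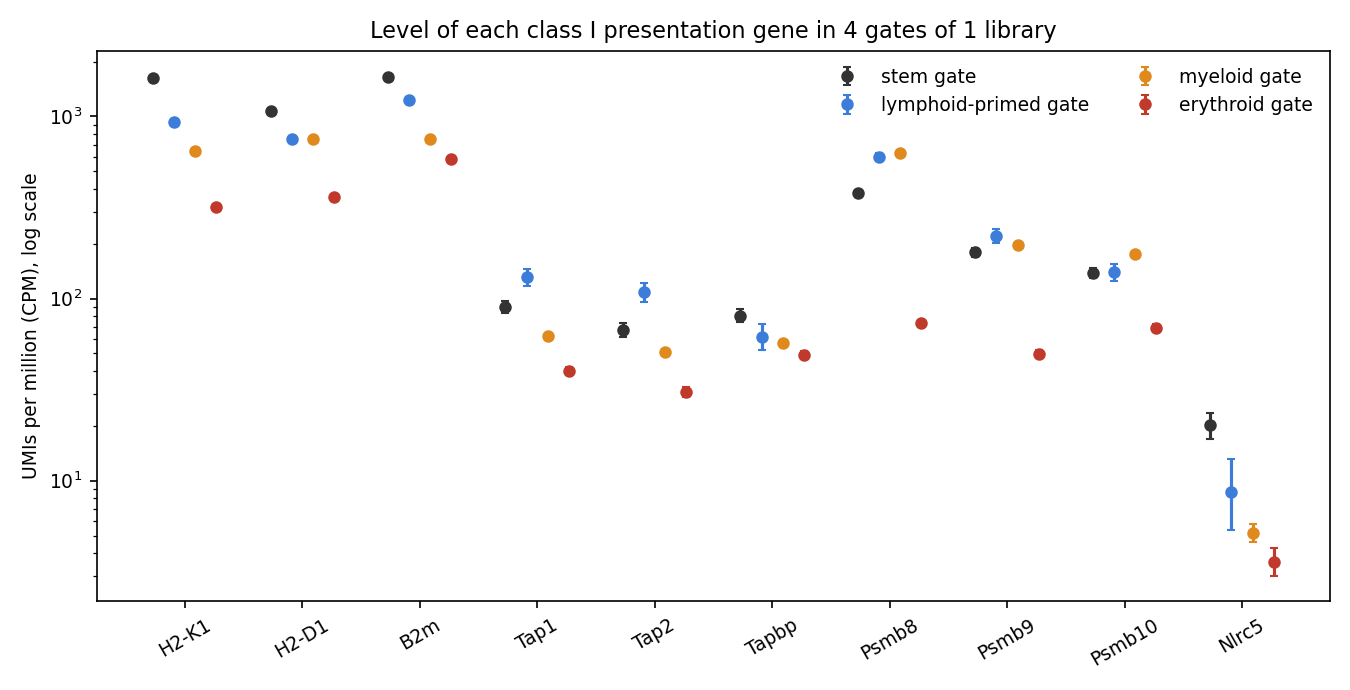
Level of each of the 10 genes in the 4 gates, in CPM on a log axis, with points for summed UMIs and bars for exact 95% Poisson intervals. The erythroid gate is the lowest point for every gene, and the stem gate is the highest for H2-K1 (1622 CPM), H2-D1 (1071 CPM), B2m (1641 CPM), Tapbp (80.5 CPM) and Nlrc5 (20.1 CPM).

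H2-K1 encodes the heavy chain H-2K, 1 of the classical class I chains that present peptides. It stood at 1622 CPM in stem cells (interval 1593 to 1652), 932 CPM in lymphoid-primed cells (interval 894 to 971), 642 CPM in myeloid cells (interval 636 to 648) and 319.7 CPM in erythroid cells (interval 314 to 326). All neighbours in this order were apart beyond counting error, and the stem level was 5.07-fold that of erythroid cells (interval 4.94 to 5.21). H2-D1, which encodes the heavy chain H-2D, stood at 1071 CPM in stem cells (interval 1047 to 1095), 748 CPM in lymphoid-primed cells (interval 714 to 783), 747 CPM in myeloid cells (interval 739.9 to 754) and 361 CPM in erythroid cells (interval 355 to 368). Here lymphoid-primed and myeloid cells could not be ordered, with a ratio of 1 (interval 0.955 to 1.05), and the fold of stem over erythroid cells was 2.96 (interval 2.88 to 3.05). B2m, the light chain without which class I molecules do not reach the surface, stood at 1641 CPM in stem cells (interval 1612 to 1671), 1226 CPM in lymphoid-primed cells (interval 1182 to 1271), 747 CPM in myeloid cells (interval 740.3 to 754) and 583 CPM in erythroid cells (interval 575 to 591). Its fold of stem over erythroid cells was 2.82 (interval 2.75 to 2.88), and that of myeloid over erythroid cells was 1.28 (interval 1.26 to 1.3).

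The balance of the heavy chains changed between gates. UMIs of H2-K1 outnumbered those of H2-D1 in stem cells, by a ratio of 1.51 (interval 1.47 to 1.56), and in lymphoid-primed cells, by 1.25 (interval 1.17 to 1.33). They were fewer than those of H2-D1 in myeloid cells, at 0.86 (interval 0.848 to 0.871), and in erythroid cells, at 0.884 (interval 0.862 to 0.907). H2-K1 and B2m had nearly equal UMI counts in stem cells, at 0.989 (interval 0.964 to 1.01), while H2-K1 had 0.549 of the B2m count in erythroid cells (interval 0.536 to 0.562). These ratios compare UMI counts of 2 genes, whose capture may differ, so that the change between gates and not the size in 1 gate can be read.

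These levels are shares of the RNA counted in a gate, and the gates differed in RNA counted per cell. The median UMIs per cell were 8742 in stem, 13942 in lymphoid-primed, 21756 in myeloid and 32743 in erythroid cells. In UMIs per cell without thinning, stem cells had 16.5 UMIs of H2-K1 against 10 in erythroid cells, 10.9 against 11.3 of H2-D1 and 16.7 against 18.3 of B2m. On this scale the ratio of stem over erythroid cells was above 1 for H2-K1 (1.65), Psmb8 (1.7), Psmb9 (1.17) and Nlrc5 (1.81). It was below 1 for H2-D1 (0.963), B2m (0.915), Tap1 (0.725), Tap2 (0.717), Tapbp (0.534) and Psmb10 (0.648). Against myeloid cells the ratio of stem cells on this scale was 1.15 for H2-K1, 1.77 for Nlrc5 and 1 for B2m, and it lay between 0.276 (Psmb8) and 0.654 (H2-D1 and Tap1) for the other members. In UMIs per cell stem cells were thus not the highest gate for H2-D1, B2m and Tapbp, in contrast to their order in CPM. Nor were erythroid cells the lowest gate for every member on this scale. The myeloid over erythroid ratio was 0.914 for B2m and 0.825 for Tapbp, and above 1 for the other members. For Tapbp the lymphoid-primed over erythroid ratio was 0.599, so erythroid cells were its highest gate. Whether cells of a gate held more RNA or yielded more of it to the assay cannot be told apart. Cycling genes differed between the same gates, and Mki67 stood at 184 CPM in stem cells and 761 CPM in erythroid cells. The part of depth and cycling in the differences was not tested.

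The upstream sequence of the heavy chain genes and of B2m is shown because stem cells had the highest and erythroid cells the lowest CPM of these genes and because their promoters carry known interferon and NF-kB elements. The windows are 250 bases upstream of a RefSeq gene start on GRCm38.p6, in the direction of the gene. Of the members, 8 were found in the promoter table, and Tap2 and Nlrc5 were not. Capitals mark GGGATTCCC (the core of the class I enhancer A) and GAANNGAAA in H2-K1 and H2-D1, where the latter is read on the opposite strand, and GAAANNGAA (a core of the interferon-stimulated response element) in B2m.

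H2-K1 (chr17:34000348-34000597, minus strand): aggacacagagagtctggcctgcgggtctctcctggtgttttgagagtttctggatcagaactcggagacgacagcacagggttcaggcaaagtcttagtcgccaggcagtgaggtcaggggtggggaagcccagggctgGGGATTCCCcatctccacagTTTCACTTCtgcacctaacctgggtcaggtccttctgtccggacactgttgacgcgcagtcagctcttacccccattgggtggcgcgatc
H2-D1 (chr17:35262844-35263093, plus strand): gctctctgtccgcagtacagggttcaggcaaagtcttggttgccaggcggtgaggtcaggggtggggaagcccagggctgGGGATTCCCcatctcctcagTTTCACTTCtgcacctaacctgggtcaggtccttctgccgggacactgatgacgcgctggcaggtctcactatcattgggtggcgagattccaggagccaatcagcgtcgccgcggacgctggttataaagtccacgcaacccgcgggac
B2m (chr2:122147437-122147686, plus strand): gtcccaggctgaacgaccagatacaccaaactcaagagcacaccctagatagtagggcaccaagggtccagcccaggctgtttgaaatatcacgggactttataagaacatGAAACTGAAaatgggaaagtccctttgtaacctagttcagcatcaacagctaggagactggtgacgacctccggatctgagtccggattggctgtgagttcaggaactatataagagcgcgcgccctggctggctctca

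On both strands, GGGATTCCC occurred in 0.353% of all 32851 promoter windows of 300 bases and, among the members, in H2-K1 and H2-D1. GAAANNGAA occurred in 8.56% of all windows and in B2m alone of the 8 members. TTCCNGGAA (the core of the gamma-activated site) occurred in 1.15% of windows and TGACGTCA (the cyclic AMP response element) in 1.79%, and no member's window held them. GAANNGAAA, searched only after the windows had been seen, occurred in 7.52% of windows and in H2-K1 and H2-D1, where it lay next to the enhancer A core. GGGATTCCC and GAANNGAAA did not overlap each other in these windows. The upstream windows of H2-K1 and H2-D1 had the same base at 161 of 177 aligned positions (91%). A match describes letters only, and a window without 1 says nothing about the factor.

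Of the members, 7 lie on chromosome 17, in the major histocompatibility complex. In GENCODE M21 on GRCm38 the protein-coding gene H2-K1 (ENSMUSG00000061232) spans chr17:33996017-34000347 on the minus strand and H2-D1 (ENSMUSG00000073411) spans chr17:35262730-35267499 on the plus strand. Between them lies a block of Psmb9 (ENSMUSG00000096727, chr17:34181987-34187764, minus strand), Tap1 (ENSMUSG00000037321, chr17:34187553-34197225, plus strand), Psmb8 (ENSMUSG00000024338, chr17:34197721-34201454, plus strand) and Tap2 (ENSMUSG00000024339, chr17:34203527-34216321, plus strand), which covers 34335 bases. Tapbp (ENSMUSG00000024308) spans chr17:33915899-33929292 on the plus strand. B2m (ENSMUSG00000060802) spans chr2:122147686-122153083 on the plus strand. Psmb10 (ENSMUSG00000031897, chr8:105935735-105938444, minus strand) and Nlrc5 (ENSMUSG00000074151, chr8:94434356-94527272, plus strand) lie on chromosome 8. Class I heavy chain genes resemble each other, and reads that fit several genes are not counted, so the last 500 bases of their transcripts were searched for 90-base windows also present in other genes. Such windows made up 0.151% in H2-K1 and 0% in each of the other members, so that these genes could be told apart by reads of that length.

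The peptide transporter had a different order of gates. Tap1, which with Tap2 forms the channel for peptides, stood at 131 CPM in lymphoid-primed cells (interval 117 to 146), 89.5 CPM in stem cells (interval 82.8 to 96.6), 62.3 CPM in myeloid cells (interval 60.4 to 64.4) and 40.1 CPM in erythroid cells (interval 38 to 42.2). Tap2 stood at 108 CPM in lymphoid-primed cells (interval 95.4 to 122), 67.5 CPM in stem cells (interval 61.7 to 73.7), 50.9 CPM in myeloid cells (interval 49.1 to 52.8) and 30.6 CPM in erythroid cells (interval 28.8 to 32.5). Both genes fell in the same order, with all neighbours apart beyond counting error, and the lymphoid-primed level was 3.26-fold the erythroid level for Tap1 (interval 2.88 to 3.69) and 3.53-fold for Tap2 (interval 3.08 to 4.05). The ratio of Tap1 to Tap2 UMIs stayed between 1.21 in lymphoid-primed cells (interval 1.02 to 1.43) and 1.33 in stem cells (interval 1.18 to 1.49), and the intervals of all 4 gates overlapped. Tapbp, the tapasin gene, varied least, with 80.5 CPM in stem cells (interval 74.1 to 87.2), 61.4 CPM in lymphoid-primed cells (interval 52 to 72.1), 56.7 CPM in myeloid cells (interval 54.8 to 58.6) and 49 CPM in erythroid cells (interval 46.7 to 51.4). Lymphoid-primed and myeloid cells could not be ordered for Tapbp in these gates, at a ratio of 1.08 (interval 0.914 to 1.28). That ratio was 1.5 with gates set on counts without thinning and 1.41 with another thinning seed. With gates set on counts without thinning, the Tapbp ratio of stem over lymphoid-primed cells was 0.996, against 1.31 here (interval 1.09 to 1.58). Both steps of the order thus depended on how cells were gated.

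Tap1 and Psmb9 are divergent neighbours. Their annotated starts lie 211 bases apart and their first bases overlap on opposite strands, so the window upstream of Tap1 is shown, most of which is also the window of Psmb9 read from the other side.

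Tap1 (chr17:34187306-34187555, plus strand): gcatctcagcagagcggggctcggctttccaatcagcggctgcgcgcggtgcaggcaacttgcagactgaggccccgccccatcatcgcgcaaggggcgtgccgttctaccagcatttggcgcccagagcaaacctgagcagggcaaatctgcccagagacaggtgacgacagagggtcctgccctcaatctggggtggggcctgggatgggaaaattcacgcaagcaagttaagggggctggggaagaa

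None of the searched motifs was in this window. The neighbours did not keep 1 ratio between gates. Psmb9 had 3.15 UMIs for each Tap1 UMI in myeloid cells (interval 3.04 to 3.27), 2 in stem cells (interval 1.82 to 2.2), 1.69 in lymphoid-primed cells (interval 1.47 to 1.95) and 1.24 in erythroid cells (interval 1.15 to 1.33).

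The inducible proteasome subunits were all lowest in erythroid cells, and stem cells were not their highest gate. Psmb8 stood at 630.3 CPM in myeloid cells (interval 624 to 637), 598 CPM in lymphoid-primed cells (interval 567 to 629), 382 CPM in stem cells (interval 368 to 396) and 73 CPM in erythroid cells (interval 70.2 to 75.9). Psmb9 stood at 221 CPM in lymphoid-primed cells (interval 203 to 241), 197 CPM in myeloid cells (interval 193 to 200.3), 179 CPM in stem cells (interval 169.5 to 189) and 49.6 CPM in erythroid cells (interval 47.3 to 52). Psmb10 stood at 175 CPM in myeloid cells (interval 171 to 178), 139 CPM in lymphoid-primed cells (interval 125 to 155), 138 CPM in stem cells (interval 129.9 to 147) and 69.3 CPM in erythroid cells (interval 66.6 to 72.1). Myeloid and lymphoid-primed cells were nearly level for Psmb8, at a lymphoid-primed over myeloid ratio of 0.948 (interval 0.899 to 0.999). The order of the heavy chains was not kept: stem cells had less Psmb8 than myeloid cells, by a ratio of 0.605 (interval 0.582 to 0.629), while they had more H2-K1, by a ratio of 2.53 (interval 2.48 to 2.58). Myeloid over erythroid folds were 8.63 for Psmb8 (interval 8.29 to 8.99), 3.97 for Psmb9 (interval 3.77 to 4.17) and 2.52 for Psmb10 (interval 2.41 to 2.64). Psmb10 did not separate lymphoid-primed from stem cells, at a ratio of 1.01 (interval 0.886 to 1.14).

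Each inducible subunit takes the place of a constitutive one, Psmb8 that of Psmb5, Psmb9 that of Psmb6 and Psmb10 that of Psmb7. The constitutive subunits moved the other way between stem and erythroid cells: all 3 were at least 1.5-fold lower in stem cells, with ratios of 0.551 for Psmb5 (interval 0.518 to 0.586), 0.631 for Psmb6 (interval 0.596 to 0.666) and 0.487 for Psmb7 (interval 0.451 to 0.526). The Psmb8 count over the Psmb5 count was 2.9 in lymphoid-primed cells (interval 2.62 to 3.21), 2.43 in stem cells (interval 2.26 to 2.6), 1.8 in myeloid cells (interval 1.77 to 1.83) and 0.256 in erythroid cells (interval 0.245 to 0.267). Erythroid cells were the only gate in which the constitutive gene had more UMIs than the inducible one in this pair. Capture of the 2 genes may differ, so the change between gates and not the side of 1 can be read. For Psmb9 over Psmb6 the ratios were 0.909 in stem cells (interval 0.843 to 0.98), 0.88 in lymphoid-primed cells (interval 0.782 to 0.99), 0.656 in myeloid cells (interval 0.641 to 0.671) and 0.159 in erythroid cells (interval 0.151 to 0.167). For Psmb10 over Psmb7 they were 1.38 in stem cells (interval 1.26 to 1.52), 1.3 in myeloid cells (interval 1.27 to 1.34), 1.22 in lymphoid-primed cells (interval 1.04 to 1.44) and 0.338 in erythroid cells (interval 0.323 to 0.354). A ratio within a gate does not depend on the RNA counted per cell, and on all 3 pairs erythroid cells lay below the other gates by more than the intervals. These are RNA ratios and not subunits in assembled proteasomes.

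**Figure D2:**
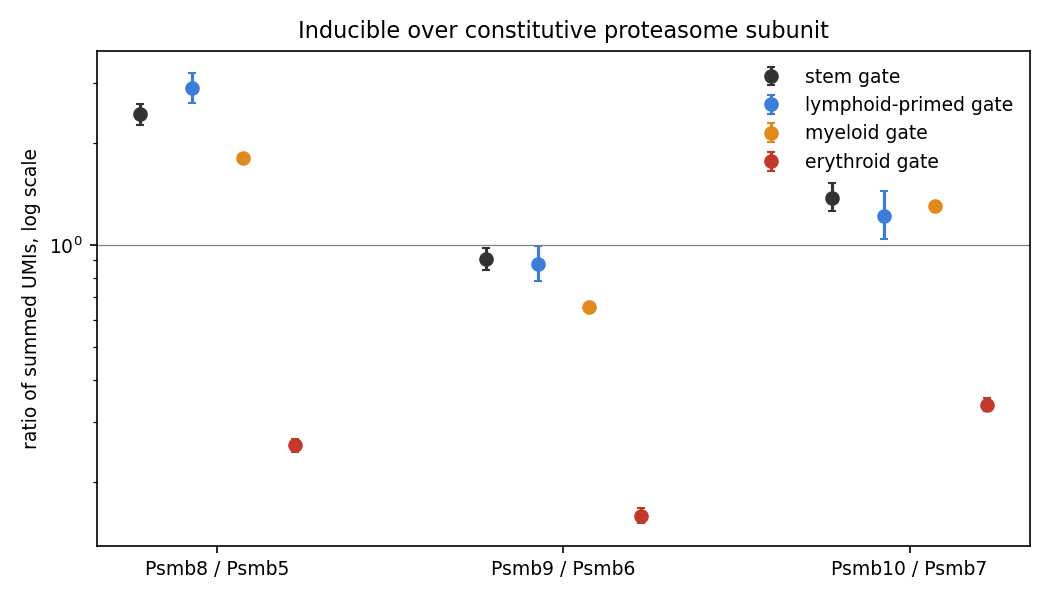
Ratio of summed UMIs of each inducible proteasome subunit to the constitutive subunit it replaces, on a log axis, in the 4 gates, with exact 95% intervals and a line at equal counts. The erythroid points lie at 0.256, 0.159 and 0.338, under those of all other gates.

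Nlrc5 was the least abundant member. It stood at 20.1 CPM in stem cells (interval 17 to 23.6, from 147 UMIs), 8.66 CPM in lymphoid-primed cells (interval 5.36 to 13.2, from 21 UMIs), 5.17 CPM in myeloid cells (interval 4.61 to 5.77, from 309 UMIs) and 3.6 CPM in erythroid cells (interval 3 to 4.29, from 125 UMIs). The order was that of H2-K1 and B2m, and the stem level was 5.58-fold the erythroid level (interval 4.37 to 7.14) and 3.89-fold the myeloid level (interval 3.17 to 4.75). The lymphoid-primed step rests on few molecules, and its ratio to myeloid cells of 1.68 had an interval of 1.02 to 2.61. With gates set on counts without thinning, the stem over lymphoid-primed ratio was 4.05, against 2.32 here (interval 1.46 to 3.86).

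Between stem and erythroid cells, all 10 members were at least 1.5-fold higher in stem cells and 0 were higher in erythroid cells. Of the 11347 genes with at least 50 UMIs in these gates together, 43.5% were higher in stem cells and 20.6% in erythroid cells by the same rule. The median fold was 2.89 over the members and 1.29 over all genes compared. Between myeloid and erythroid cells, 7 members were higher in myeloid cells and 0 in erythroid cells, against 28.2% and 26.8% of 12021 genes, with B2m, Tapbp and Nlrc5 within 1.5-fold. The median fold was 1.83 over the members and 0.941 over all genes. This count turned on Tap1 (1.56) and Tap2 (1.67): it was 5 with gates set on counts without thinning, where they stood at 1.38 and 1.39, and 5 with sums of thinned cells, where they stood at 1.39 and 1.48. Between lymphoid-primed and erythroid cells, 9 members were higher in lymphoid-primed cells and 0 in erythroid cells, against 32.5% and 22.9% of 10482 genes. Tapbp was within 1.5-fold at 1.25 (interval 1.05 to 1.48), but stood at 1.74 with gates set on counts without thinning and at 1.63 with another thinning seed. The median fold was 2.65 over the members and 1.07 over all genes. In each comparison with erythroid cells the members' share was thus above that of all genes.

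The other gates differed less, and the members did not move together. Between stem and myeloid cells, 3 members were higher in stem cells (H2-K1, B2m and Nlrc5) and 1 in myeloid cells (Psmb8), against 45.24% and 15% of 12059 genes, so that the members' share higher in stem cells was below the background. Their median fold of 1.43 was close to the 1.38 of all genes. Between stem and lymphoid-primed cells, 2 members were higher in stem cells (H2-K1 and Nlrc5) and 2 in lymphoid-primed cells (Tap2 and Psmb8), against 24% and 10.1% of 10333 genes, with medians of 1.14 and 1.09. Between lymphoid-primed and myeloid cells, 4 members were higher in lymphoid-primed cells (B2m, Tap1, Tap2 and Nlrc5) and 0 in myeloid cells, against 33.7% and 11.5% of 11461 genes, with medians of 1.28 and 1.22. In these 3 comparisons the members as a group stood near the background, and the statements rest on single genes. Several of these counts turn on a gene near the limit: the stem over myeloid folds of H2-D1, Tap1 and Tapbp were 1.43, 1.44 and 1.42, and with 1 more marker asked of each gate 5 members were higher in stem cells.

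Within the erythroid gate, levels were read by the number of erythroid markers, a count that was not built on the members. How many of all genes fell over the same cells was not measured, so a fall here is not read as particular to the members. H2-K1 stood at 529.6 CPM in the 175 cells with 3 markers, 411 CPM with 4, 276 CPM with 5, 219 CPM with 6 and 187 CPM in the 89 cells with all 7 (interval 171 to 203). Psmb8 fell more steeply, from 167 CPM (interval 155 to 179) through 118, 57.6 and 20.5 CPM to 10.7 CPM (interval 7.25 to 15.2). B2m fell from 747 CPM to 490.4 CPM, Tap1 from 64.3 CPM to 27.6 CPM and Psmb10 from 99.5 CPM to 40.3 CPM. H2-D1 went from 451 to 299.6 CPM, Tap2 from 41.7 to 19.3 CPM and Psmb9 from 94 to 25.5 CPM. Nlrc5 went from 4.96 CPM (interval 3.11 to 7.51) to 2.07 CPM (interval 0.758 to 4.5), with intervals that overlap. Tapbp did not fall, with 46.5 CPM at 3 markers (interval 40.3 to 53.3) and 51 CPM at 7 (interval 43.1 to 59.9). Median depth was 25679 UMIs in cells with 3 markers and between 32094 and 34505 in the others, and its part in these changes was not tested.

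In the stem gate H2-K1 rose with the number of stem markers, from 1507 CPM in the 284 cells with 2 (interval 1465 to 1549) to 1909 CPM in the 45 cells with 5 or more (interval 1773 to 2052), and B2m rose from 1546 to 1849 CPM. For 2, 3, 4 and 5 or more markers Psmb8 stood at 399, 373, 375 and 311 CPM, with an interval of 378 to 421 at the first step and of 258 to 372 at the last. Psmb10 stood at 138, 154, 127 and 72.6 CPM, with an interval of 126 to 152 at the first step and of 48.3 to 105 at the last. The lower values of both rest on the 45 cells with 5 or more markers. Psmb9 stood at 181, 185, 162 and 176 CPM, with intervals that overlap. Median depth fell from 9851 to 7722 UMIs over these cells. In the myeloid gate the changes were small: H2-K1 went from 681 to 594 CPM and Psmb8 from 648 to 614 CPM between 3 and 6 or more markers.

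**Figure D3:**
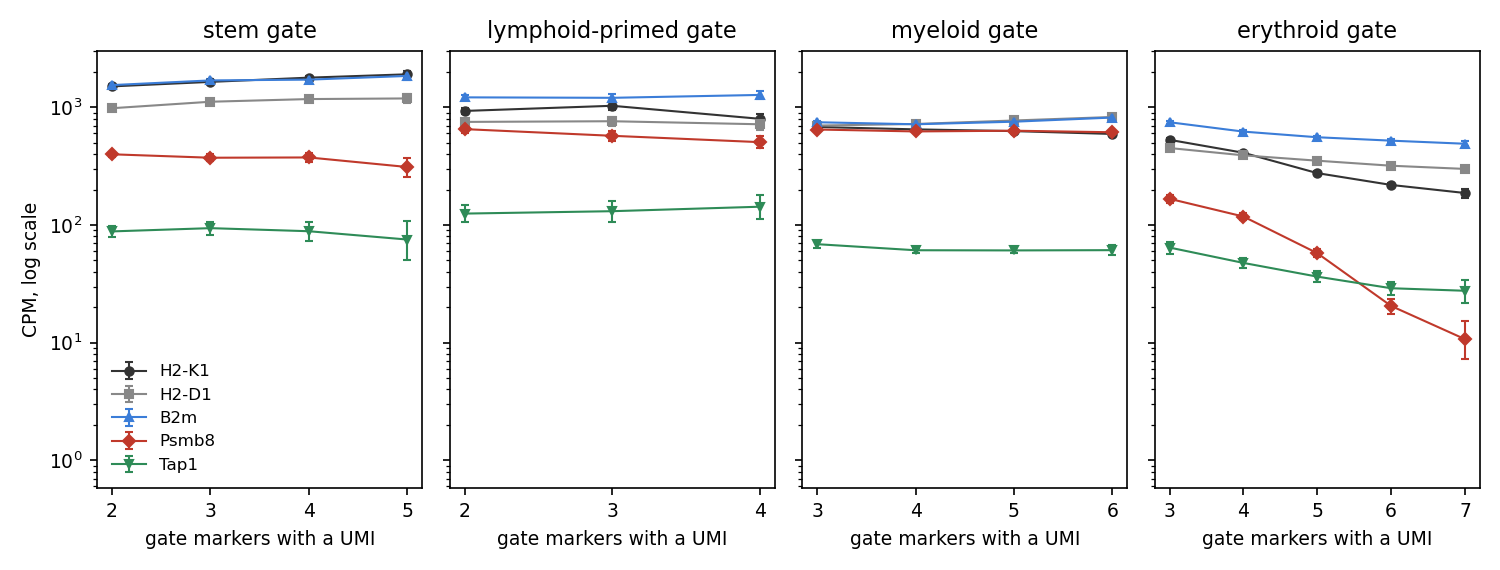
Level of 5 members in CPM (log axis) against the number of gate markers with a UMI in a cell thinned to 5000 UMIs, in a panel for each gate, with exact 95% Poisson intervals and the last point of each panel pooling that number or more. In the erythroid panel Psmb8 falls from 167 to 10.7 CPM while B2m falls from 747 to 490.4 CPM, and in the stem panel H2-K1 rises from 1507 to 1909 CPM.

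The difference was spread over the cells of a gate and did not rest on a few. At 5000 UMIs per cell, the sum of H2-K1, H2-D1 and B2m had a median of 22 UMIs in stem cells (5th to 95th percentile 12 to 33), 15 in lymphoid-primed cells (6 to 25.9), 10 in myeloid cells (4 to 18) and 6 in erythroid cells (2 to 16). No stem cell had 0, and 11 of 1107 erythroid cells did. The sum of Psmb8, Psmb9 and Psmb10 had a median of 5 UMIs in myeloid, 4 in lymphoid-primed, 3 in stem and 1 in erythroid cells, and 511 erythroid cells had 0, against 29 of 2675 myeloid cells. The variance of the heavy chain and B2m sum over its mean was 2.87 in erythroid and 2.88 in lymphoid-primed cells, against 1.85 in stem and 1.69 in myeloid cells, where counting alone would give about 1. Within the erythroid gate, H2-K1 and B2m had a Pearson correlation of 0.41 over the 1107 thinned cells, and 0.13 over the 2675 myeloid cells. The cells of a gate share a library and a depth, and these correlations are descriptions of sparse counts.

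**Figure D4:**
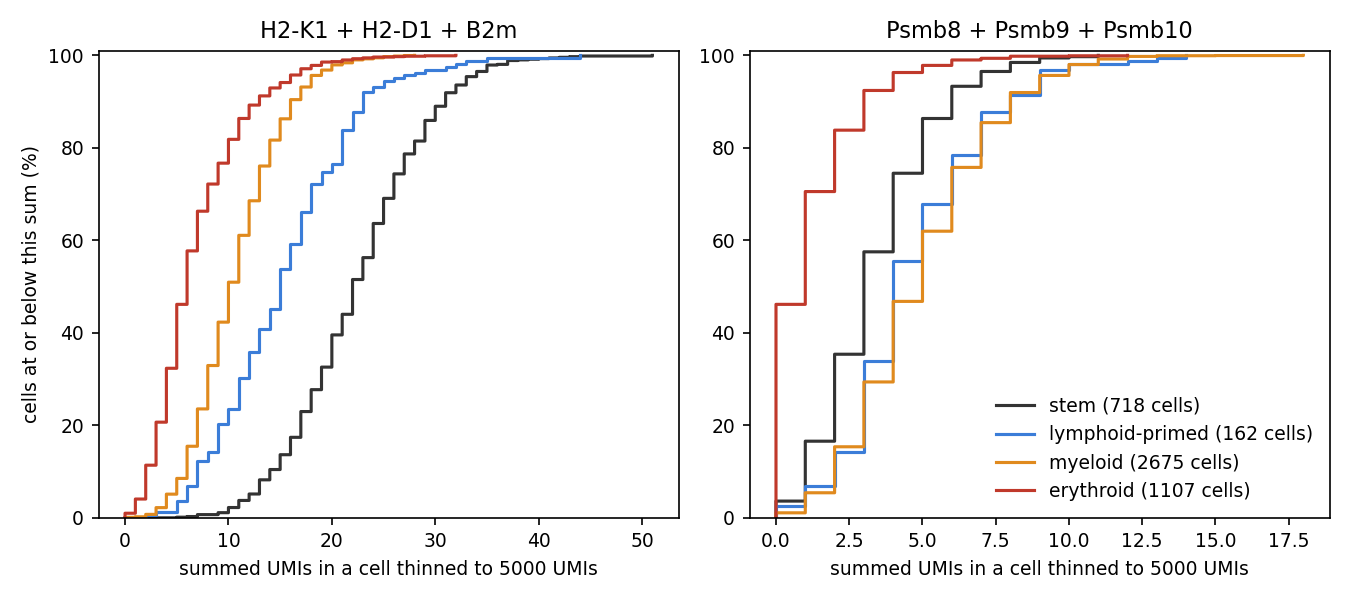
Share of the cells of each gate (percent) at or below a given sum of UMIs, in cells thinned to 5000 UMIs, for H2-K1 + H2-D1 + B2m (left) and Psmb8 + Psmb9 + Psmb10 (right). The stem curve lies farthest right on the left panel (median 22 UMIs) but between the erythroid and the lymphoid-primed curves on the right panel (median 3 UMIs), and the erythroid curve starts high at 0 on the right (511 of 1107 cells).

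At 5000 UMIs, Psmb8 was seen in 28.3% of erythroid cells (exact Clopper-Pearson interval 25.6 to 31), 83% of stem cells (interval 80.1 to 85.7), 94.4% of myeloid cells (interval 93.4 to 95.2) and 95.1% of lymphoid-primed cells (interval 90.5 to 97.8). Without thinning these shares were 56.2%, 94.6%, 99.9% and 98.1%. H2-K1 was seen in 74.8% of thinned erythroid cells (interval 72.1 to 77.3) and in 99.9% of stem cells (interval 99.2 to 100), and Nlrc5 in 1.99% of erythroid cells (interval 1.25 to 2.99) and 10.9% of stem cells (interval 8.68 to 13.4). Tap1 was seen in between 19.1% of erythroid and 46.3% of lymphoid-primed cells, and Tap2 in between 15.2% and 37.7%.

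No gated cell type is known to lack class I genes, so free RNA in the droplets was judged from Mpo, a granule gene of myeloid cells that is no gate marker. Mpo stood at 5141 CPM in myeloid cells and 41.4 CPM in erythroid cells, where 19.2% of thinned cells and 69.6% of cells without thinning had a UMI of it. Shares of cells without thinning can thus include free RNA. If every Mpo UMI of the erythroid gate were free RNA of the makeup of myeloid cells, that RNA would bring 5.08 CPM of Psmb8, which is 6.95% of the level measured there, and 5.17 CPM of H2-K1, which is 1.62%. Over all members and the whole stem, erythroid and lymphoid-primed gates this share lay between 0.359% and 9.66%. It was larger where Psmb8 was lowest: in the erythroid cells with all 7 markers free RNA could bring 5.07 CPM of the 10.7 CPM of Psmb8, or 47.5%, and 5.16 CPM of the 187 CPM of H2-K1, or 2.76%. The haemoglobin gene Hba-a1 stood at 989.8 CPM in erythroid cells and between 10.3 and 16 CPM in the other gates.

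Within the myeloid gate, cells with a UMI of the granulocytic markers Cebpe or Fcnb and none of Csf1r, Ly86 or F13a1 were compared with cells that had at least 2 of these 3 monocytic markers and neither granulocytic one, a split made after the data had been seen. The 1145 monocytic cells had more Tap1 than the 517 granulocytic cells, by a ratio of 1.59 (interval 1.44 to 1.76), and more Tapbp, by 1.53 (interval 1.38 to 1.7). For 10701 genes compared in the same way, 20.6% were at least 1.5-fold higher in monocytic cells and 7.51% in granulocytic cells. H2-D1 stood at 813 against 644 CPM, Psmb8 at 649 against 545 CPM and Psmb9 at 212 against 165 CPM in monocytic and granulocytic cells. H2-K1 and Tap2 were lower in monocytic cells, with ratios of 0.888 (interval 0.864 to 0.913) and 0.844 (interval 0.765 to 0.931), so that both the heavy chains and the subunits of the transporter parted here. Median depth was 21603 and 20603 UMIs.

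Other cells in the library fell inside or beyond the range of the gates. The 89 cells with dendritic cell markers had 889.6 CPM of Psmb8 (interval 836 to 946), 408 CPM of Psmb9 (interval 372 to 447), 174 CPM of Tap1 (interval 151 to 199.5) and 156 CPM of Tapbp (interval 134 to 180.1), all above the 4 gates. Their H2-K1, at 648 CPM (interval 603 to 697), was close to that of myeloid cells. The 357 cells with megakaryocyte markers had 1061 CPM of H2-K1 (interval 1036 to 1087) and 12.4 CPM of Nlrc5 (interval 9.83 to 15.5), second to stem cells among these groups. The 569 basophil or mast cells had 785 CPM of H2-K1 and 448 CPM of Psmb8.

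The remaining genes of the pathway were taken from fixed lists. Of 15 other class I and class I-like heavy chain genes, 14 were in the matrix. The 11 with enough UMIs were all at least 1.5-fold higher in stem than in erythroid cells, beside 43.5% of all genes. Their median fold was 6.61. The highest were Fcgrt, the neonatal Fc receptor (46, interval 25.9 to 88.8), H2-Q6 (9.32, interval 8.39 to 10.4) and H2-M3 (9.08, interval 7.22 to 11.5), and the lowest was H2-T24 (1.66, interval 1.2 to 2.28). Against myeloid cells 10 of 12 were higher in stem cells and 1 was lower, beside 45.24% and 15% of all genes. The median fold was 5.71. The non-classical gene H2-Q7 stood at 447 CPM in stem, 235 in lymphoid-primed, 78.7 in erythroid and 40.8 in myeloid cells. Its fold of stem over myeloid cells was 11 (interval 10.4 to 11.6), next to the highest, that of Mr1 (11.2, interval 8.21 to 15.4). Hfe, a regulator of iron uptake, was the exception, at 13.7 CPM in myeloid and 3.28 CPM in stem cells. Several of these genes are near copies: 26.9% of the end windows of H2-Q6, 26.4% of H2-T22, 13.4% of H2-T23, 9.49% of H2-Q4 and 4.73% of H2-Q7 were also present in other genes, so their values are less certain than those of the members.

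The peptide loading genes stood near the background. Of 5, 2 were higher in stem than in erythroid cells and 1 was lower, beside 43.5% and 20.6% of all genes. The higher ones were Tapbpl, a relative of tapasin (4.62, interval 3.76 to 5.68), and Erap1, which trims peptides (3.15, interval 2.79 to 3.56). The chaperone gene Canx was lower (0.524, interval 0.497 to 0.552), and Calr and Pdia3 were within 1.5-fold. Of 12 other subunits and maturation factors of the proteasome core, 0 were higher and 9 were lower in stem cells. The shares of all genes were 43.5% and 20.6%, and the median fold of the 12 was 0.629. The higher level of the inducible subunits in stem cells stood beside lower levels of the constitutive core. Of the proteasome activator genes, Psme1 was higher (2.13, interval 2.04 to 2.23), Psme3 was lower (0.444, interval 0.395 to 0.497) and Psme2 was within 1.5-fold (0.947, interval 0.877 to 1.02).

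Transcription factors of the class I and interferon pathways were mostly higher in stem than in erythroid and myeloid cells. Of 12, 9 were higher than in erythroid cells and 0 were lower, against 43.5% of all genes higher, with a median fold of 2.48. Against myeloid cells 10 were higher and 0 lower, beside 45.24% of all genes, with a median of 2.22. Against lymphoid-primed cells 3 were higher and 0 lower, beside 24% and 10.1% of all genes. The median there was 1.15 beside 1.09 over all genes, so the share higher was near the background. Irf1, an interferon-responsive activator of class I genes, stood at 52.6 CPM in stem, 49.5 in lymphoid-primed, 16.1 in myeloid and 4.09 in erythroid cells. Its fold of stem over erythroid cells was 12.9 (interval 10.6 to 15.7), and that of Rfx5, which binds class I and class II promoters, was 4.49 (interval 3.64 to 5.55). The highest such fold of the 12 was that of Ciita, at 30.8 (interval 14.6 to 75.2). Rfxap was within 1.5-fold at 0.722 (interval 0.635 to 0.818). The 4 class II genes were higher in stem cells than in erythroid or myeloid cells, and Cd74, the class II invariant chain, stood at 154 CPM in stem, 117 in lymphoid-primed, 27.8 in myeloid and 2.65 in erythroid cells.

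Since the mice had been given an interferon inducer, 10 interferon-stimulated genes were read in the same cells. Of the 9 with enough UMIs, 8 were higher in stem than in erythroid cells and 0 were lower, beside 43.5% and 20.6% of all genes. Their median fold was 3.17. Against myeloid cells 8 of 9 were higher in stem cells and 0 were lower, beside 45.24% and 15% of all genes. The median fold was 11.4, and the highest were Ifi44 (78.1, interval 51.7 to 123), Ifit1 (46.5, interval 27.1 to 84.8) and Rsad2 (31.5, interval 22.1 to 45.7). Against lymphoid-primed cells 4 of 9 were higher in stem cells and 1 was lower, beside 24% and 10.1% of all genes, with a median fold of 1.26. Lymphoid-primed cells were in turn higher than myeloid cells for 6 of 7, beside 33.7% of all genes, with a median fold of 8.76. Between myeloid and erythroid cells 2 of 7 were higher in myeloid and 4 in erythroid cells, against 28.2% and 26.8% of all genes, and those higher in myeloid cells were Bst2 (2.95, interval 2.8 to 3.11) and Oasl2 (1.89, interval 1.17 to 3.17). The summed level of all 10 was 277 CPM in stem, 319.6 in lymphoid-primed, 165 in myeloid and 83 in erythroid cells, and Bst2 alone made up 116, 215, 151 and 51.2 CPM of these sums.

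Within the stem gate, the members were compared between the 69 cells with at least 3 of the 10 interferon-stimulated genes and the 214 cells with none, at 5000 UMIs per cell. H2-K1 stood at 1772 CPM (interval 1671 to 1877) against 1541 CPM (interval 1490.2 to 1593), a ratio of 1.15 (interval 1.07 to 1.23). H2-D1 had a ratio of 1.17 (interval 1.07 to 1.26) and B2m a ratio of 1.15 (interval 1.07 to 1.22). The remaining members had ratios between 0.939 (Tap2) and 1.49 (Nlrc5), and their intervals all held 1. Few cells outside the stem gate had 3 or more of these genes: 7 erythroid, 6 myeloid and 9 lymphoid-primed cells. In the 7 erythroid cells Tap1 stood at 97.9 CPM (interval 58 to 155) against 35.1 CPM in the 759 without any, and Psmb9 at 114 CPM (interval 70.7 to 175) against 42.5 CPM, with median depths of 24104 and 33568 UMIs. In the 6 myeloid cells H2-K1 had a ratio of 1.45 to the 1239 without any (interval 1.23 to 1.7) and Psmb9 of 1.58 (interval 1.18 to 2.07). In the 9 lymphoid-primed cells H2-K1 was higher than in the 57 without any, at a ratio of 1.63 (interval 1.36 to 1.93), Psmb8 was lower, at 0.671 (interval 0.485 to 0.908), and H2-D1 had a ratio of 1 (interval 0.791 to 1.26).

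Across the library as a whole, cells were also grouped into 22 graph clusters without the members and the listed genes. The cluster led by Hbb-bs and Hba-a1, 445 cells, had the lowest levels of Psmb8 (8.11 CPM) and H2-K1 (178 CPM). It was also lowest for H2-D1, B2m, Tap1, Tap2, Psmb9 and Psmb10. The share of all genes that were lowest in this cluster was not measured. The cluster led by Cldn5 and Procr, 673 cells, had the highest H2-K1 (1720.3 CPM), H2-D1 (1126 CPM), B2m (1735 CPM) and Nlrc5 (24.5 CPM). The cluster led by Xcr1 and Plbd1, 154 cells, had the highest Psmb8 (1046 CPM), Psmb9 (425 CPM), Psmb10 (202 CPM), Tap1 (203 CPM) and Tapbp (220.4 CPM). Xcr1 marks dendritic cells that present antigen to cytotoxic T cells. The highest cluster level was 18.3-fold the lowest for Psmb9 and between 3.35-fold (B2m) and 9.65-fold (H2-K1) for the other members with UMIs in every cluster, Psmb8 left aside. No fold is given for Psmb8, since by the measure from Mpo free RNA could bring 4.97 CPM of its 8.11 CPM in the lowest cluster, or 61.3%.

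**Figure D5:**
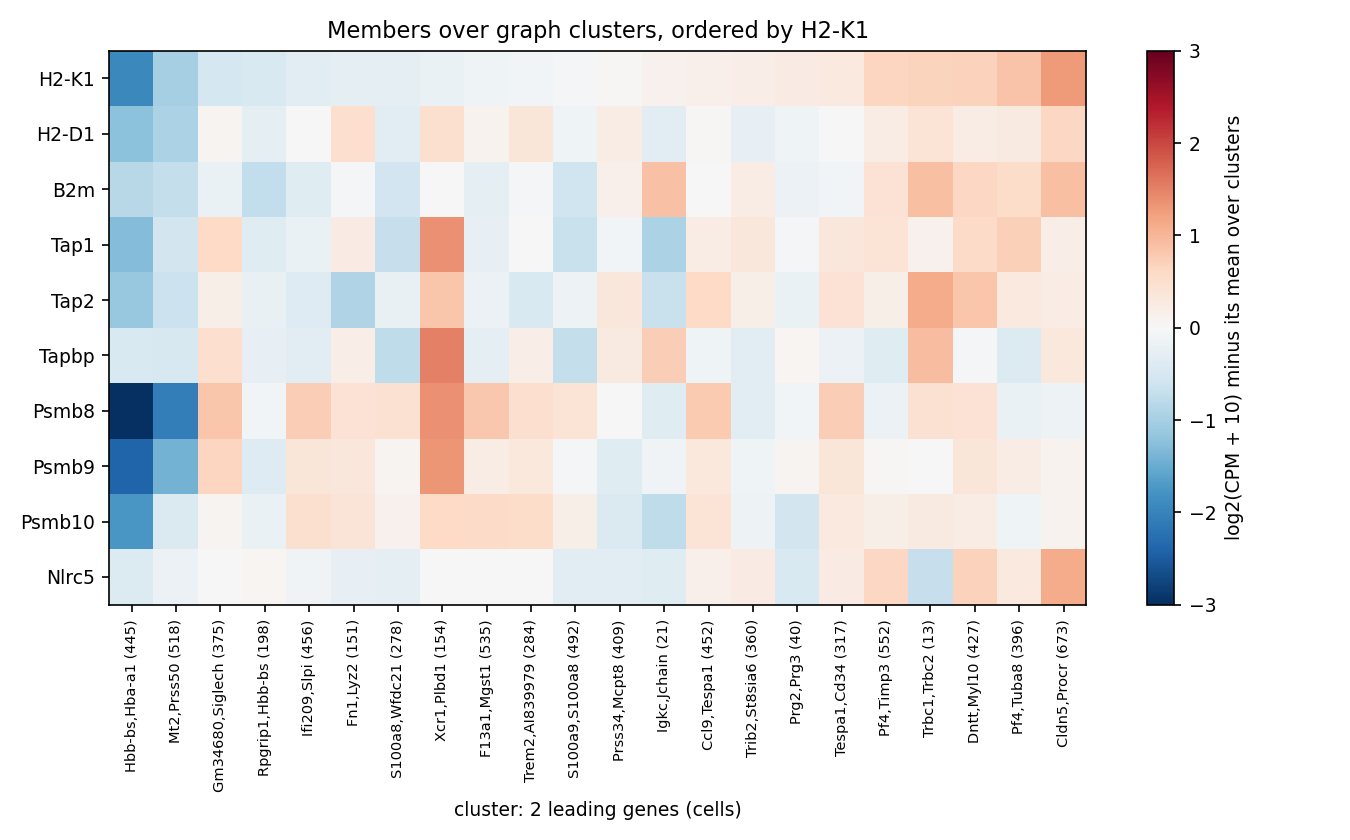
Level of each member in 22 graph clusters as log2(CPM + 10) minus the gene's mean over clusters (colour), with clusters ordered by H2-K1 and named by 2 leading genes with their number of cells. The cluster led by Hbb-bs and Hba-a1 is lowest for H2-K1 and Psmb8, and the cluster led by Xcr1 and Plbd1 is highest for Psmb8, Psmb9, Psmb10, Tap1 and Tapbp.

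Over the 22 clusters, which share the library and differ in depth, the Pearson correlation of log2(CPM + 10) was 0.95 for Psmb8 and Psmb9, 0.87 for Psmb8 and Psmb10, 0.81 for H2-K1 and B2m and 0.75 for H2-K1 and H2-D1. It was 0.29 for Psmb8 and B2m, 0.17 for Psmb8 and Nlrc5 and -0.09 for Tapbp and Nlrc5, the lowest of all pairs. H2-D1 had correlations of 0.82 for Psmb9, 0.78 for Psmb8 and 0.74 for Psmb10 against 0.62 for B2m. The Psmb8 correlations include its lowest cluster, at 8.11 CPM, most of which free RNA could bring. Over single thinned cells, Psmb8 and Psmb9 had correlations from 0.04 in the myeloid gate to 0.28 in the erythroid gate. Of 5470 genes outside the lists, those with the pattern most like the mean of the members over the 22 clusters were Sp110 (0.95), Celf2 (0.94), Mndal, Laptm5 and Ptpn18 (0.93 each). Laptm5 ranged from 5.98 to 839.6 CPM over the clusters and Sp110 from 15.1 to 111 CPM.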

How the data were processed

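The deposited values are UMI counts per gene and cell barcode, not normalized, which the authors made with Cell Ranger 6.0.2 and mm10 per the submitters' processing notes. The labels describe a kit for bulk RNA, but the header of the matrix and the methods of the study describe 10x single cells, the form the values have. The study's filter was applied: UMIs between 1000 and 50000, genes between 1000 and 6500 and a mitochondrial share under 7%. Doublets were kept in the main values, since the methods name no removal. Scrublet marked 265 cells (3.47%), of which 5 lay in the stem, 17 in the erythroid, 64 in the myeloid and 0 in the lymphoid-primed gate.

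Each cell was thinned without replacement to 5000 UMIs for gating and for shares of cells, and gate levels are sums of unthinned counts. Genes with at least 50 UMIs in both gates together were compared. Python 3.11.15 was used with scipy 1.17.1 for intervals and scanpy 1.11.5 for clusters (2000 variable genes, 30 components, 20 neighbours, resolution 1, seed 1). The ratio and gating steps were tested on simulated data. All members are named, and of each other list at most 3 genes in each direction, by ratio. Like genes were ranked by correlation over clusters, among genes reaching 50 CPM in 1 cluster. Several list genes are also given by their level in all gates. The members, lists and gates were chosen with earlier results of these data known, and the myeloid split and GAANNGAAA were added later. The alternatives were other marker minimums, gating without thinning, another seed, thinned sums, doublet removal, other cell filters, another CPM denominator, graph clusters and no UMI minimum.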

Additional observations from a re-analysis of the deposited data

Results flagged for a closer look

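The study's filter removed 1172 barcodes that no comparison above used, and every member was detected in them above the level that 3 UMIs would give (0.192 CPM). Their summed UMIs gave 468 CPM of H2-K1, 467 CPM of H2-D1 and 569.9 CPM of B2m, against 698, 686 and 857 CPM in the cells kept. Tap1 stood at 55.5 CPM, Tap2 at 46.7 CPM and Tapbp at 56.3 CPM, against 70.1, 55.3 and 61.7 CPM. Psmb8 stood at 189 CPM, Psmb9 at 80.3 CPM and Psmb10 at 93.7 CPM, against 442, 160.4 and 135 CPM. Nlrc5 stood at 7.82 CPM (interval 6.49 to 9.34) against 6.91 CPM (interval 6.5 to 7.35). The ratio of removed to kept cells ran from 0.428 for Psmb8 (interval 0.412 to 0.444) to 1.13 for Nlrc5 (interval 0.93 to 1.37). The removed barcodes may hold another mix of cell types, and what sets these levels was not tested.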

How the results depend on the processing

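Of 570 ratios under 10 settings, 0 past 1.5-fold changed direction, 444 stayed within the counting interval of the main value and 126 did not. UMIs per cell are not among these settings, and on that scale H2-D1, B2m, Tap1, Tap2, Tapbp and Psmb10 were lower in stem than in erythroid cells. With 1 more marker asked of each gate, members higher in stem than in myeloid cells went from 3 to 5, and members higher in stem than in lymphoid-primed cells from 2 to 4. With another thinning seed, members higher in lymphoid-primed than in stem cells went from 2 to 1. The widest moves were Nlrc5 in stem over lymphoid-primed cells, from 2.32 to 4.05 with gates on unthinned counts, and Psmb8 in stem over erythroid cells, from 5.23 to 3.61 with sums of thinned cells. Members higher in myeloid than in erythroid cells went from 7 to 5 with gates on unthinned counts or thinned sums, to 6 with 1 marker fewer and to 8 with 1 more. Thinned sums also moved the median log2 ratio of all genes by -0.14 for stem over erythroid cells and by -0.16 for lymphoid-primed over erythroid cells, and left 9 (without Tapbp, at 1.37) and 8 members higher. In lymphoid-primed over erythroid cells Tapbp passed 1.5-fold with gates on unthinned counts (1.74) and with another thinning seed (1.63). The causes were not tested. Without a UMI minimum, 60.2% of 17935 genes were higher in stem than in erythroid cells. Graph clusters gave no lymphoid-primed group, so these pairs have no value there, and 10, 4 and 7 members were higher in stem over erythroid, stem over myeloid and myeloid over erythroid groups. No paired analysis was possible because there was 1 library. The lymphoid-primed gate held 162 cells, and its low counts limit Nlrc5 and Tapbp most.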
